A study of Homo sapiens with 6 samples.

Results

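The genes examined were the matrix metalloproteinases (MMPs), the ADAM and ADAMTS proteins and the tissue inhibitors of metalloproteinases (TIMPs) of HT1080 cells, an established human fibrosarcoma line. Members were taken by gene symbol, as MMP with a number and an optional A or B, TIMP1 to TIMP4, ADAM with a number or ADAMTS with a number, and had to be protein coding. This gave 66 genes of the 62710 gene IDs in the table, made up of 23 MMP, 4 TIMP, 20 ADAM and 19 ADAMTS genes. A further 4 gene IDs with matching symbols (ADAM5, MMP23A and 2 IDs of ADAM6) were not protein coding and were left out. RNA-seq was done on 6 libraries, 3 of untreated HT1080 cells and 3 of cells given 20 ng/mL IFNβ for 24 h. No genetic change or other agent was named for either group. The sample labels give the cytokine as human, and so do the study's culture methods for all cells but its mouse line. The sequencing methods of the study, written for HT1080 and the mouse line together, call it mouse IFNβ. The study's general statement on statistics describes its in vitro data as coming from independent biological replicates, without naming the sequencing libraries. The labels do not say whether the 3 libraries of a group came from separate cultures, and p-values measure the spread between these libraries.

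MMPs are zinc-dependent proteases that are made as inactive precursors and, once activated, cut collagens and other proteins of the extracellular matrix. TIMPs bind the active site of MMPs and of some ADAMs and block them. ADAMs are mostly membrane proteins, many of which release the outer part of growth factors, cytokines and receptors from the cell surface, and ADAMTS proteins are secreted enzymes that process matrix proteins such as procollagens and proteoglycans. HT1080 cells have long been used to study invasion through matrix, with MMP14 at the cell surface as the activator of secreted MMP2.

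The sequence that these proteases share is the zinc-binding site, in which 3 histidines hold the catalytic zinc. A search of the coding sequences for its pattern (histidine, glutamate, any pair of residues, histidine, any pair, glycine, any pair, histidine) found it in all 23 MMPs, 12 of 20 ADAMs, 13 of 19 ADAMTSs and 0 of 4 TIMPs. The ADAMTSs without a match were ADAMTS1, ADAMTS4, ADAMTS6, ADAMTS8, ADAMTS9 and ADAMTS15. The pattern misses a site with another residue in place of glycine, and ADAMTS6 was searched in a coding sequence of only 292 codons. A miss therefore does not show that an ADAMTS lacks a zinc site. The coding stretches below are shown to let the collagenase MMP13, the member with the largest change, be set beside the other collagenases and beside relatives of high or changed level. They come from GENCODE release 29 on GRCh38, read 5′ to 3′ along the coding strand, and capitals mark the 3 histidine codons.
MMP13: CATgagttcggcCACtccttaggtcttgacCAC
MMP1: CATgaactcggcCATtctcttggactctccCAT
MMP8: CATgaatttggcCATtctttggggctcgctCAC
MMP3: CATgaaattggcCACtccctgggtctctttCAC
MMP2: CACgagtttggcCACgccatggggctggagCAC
MMP14: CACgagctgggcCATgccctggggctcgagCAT
ADAM15: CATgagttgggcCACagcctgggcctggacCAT
ADAM17: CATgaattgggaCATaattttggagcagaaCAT
The MMP13 stretch lies in exon 5 at chr11:102952115-102952147 on the minus strand. Those of MMP1 (chr11:102795549-102795581), MMP8 (chr11:102718517-102718549) and MMP3 (chr11:102840535-102840567) also lie in exon 5 on the same strand of the same chromosome, where these genes form a cluster. MMP14 (chr14:22843283-22843315, plus strand) has the site in exon 5, MMP2 (chr16:55491827-55491859, plus strand) in exon 8, and ADAM15 (chr1:155056995-155057027, plus strand) and ADAM17 (chr2:9510078-9510110, minus strand) in exon 11. Of 33 bases, 25 were the same as in MMP13 for MMP2 and for ADAM15, 24 for MMP8 and MMP3, 22 for MMP1 and MMP14, and 19 for ADAM17.

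Levels are given as FPKM, fragments counted relative to the length of the gene and the depth of the library. The authors' FPKM values were divided by between 22848104 and 32915500 fragments per library, and a gene of 1 kb with 1 fragment has between 0.0304 and 0.0438 FPKM. As a check of the labels, ISG15, IFIT1, MX1, OAS1 and IRF9, which are classical interferon-stimulated genes, were all higher in IFNβ-treated cells by at least 2-fold, and their summed level went from between 11.6 and 12.7 FPKM to between 1947 and 1999 FPKM. Mesenchymal markers (VIM, FN1, SPARC, S100A4, CDH2 and TWIST1) summed to between 757.5 and 830.4 FPKM over the 6 libraries, with FN1, SPARC and CDH2 called higher, VIM called lower and S100A4 and TWIST1 not called. Epithelial markers (EPCAM, CDH1, KRT5 and CLDN4) summed to at most 0.654 FPKM, leukocyte markers (PTPRC, CD3E, CD14, CD79A and CD68) to at most 0.40 FPKM and endothelial markers (PECAM1, VWF, CDH5 and KDR) to at most 0.53 FPKM. The endothelial sum was between 0.268 and 0.421 FPKM without and between 0.471 and 0.53 FPKM with IFNβ. EPCAM, CDH1, KRT5 and PTPRC were at or near 0, and the epithelial marker that was tested, CLDN4, was higher after IFNβ (0.314 ± 0.109 to 0.575 ± 0.0584 FPKM, adjusted p = 0.047). The part of these markers in the results was not tested. Bulk RNA cannot tell fewer cells of a kind from less RNA per cell.

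Among the 66 genes, 60 had a fragment in at least 1 library, and ADAMTS8, ADAMTS10, ADAM30, MMP26, MMP27 and MMP28 were listed at 0 in every library. A mean level of at least 0.1 FPKM over the 6 libraries, needed to enter the test, was reached by 37 members, and 24 of these had at least 1 FPKM. Closest to this limit were ADAMTS13 at 0.117 FPKM, just inside, and ADAM32 at 0.0949 FPKM, just outside. ADAMTS13 had a mean of 0.0927 FPKM in untreated and 0.142 FPKM in IFNβ-treated libraries, so it entered the test through the treated group. The order by mean level over all libraries was headed by MMP14, TIMP2, TIMP1, ADAM19, ADAM15, MMP2, ADAM9, MMP1, ADAM10 and ADAMTS6. MMP14 alone made up between 49.5% and 53.6% of the summed FPKM of all members in each library.

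**Figure D1:**
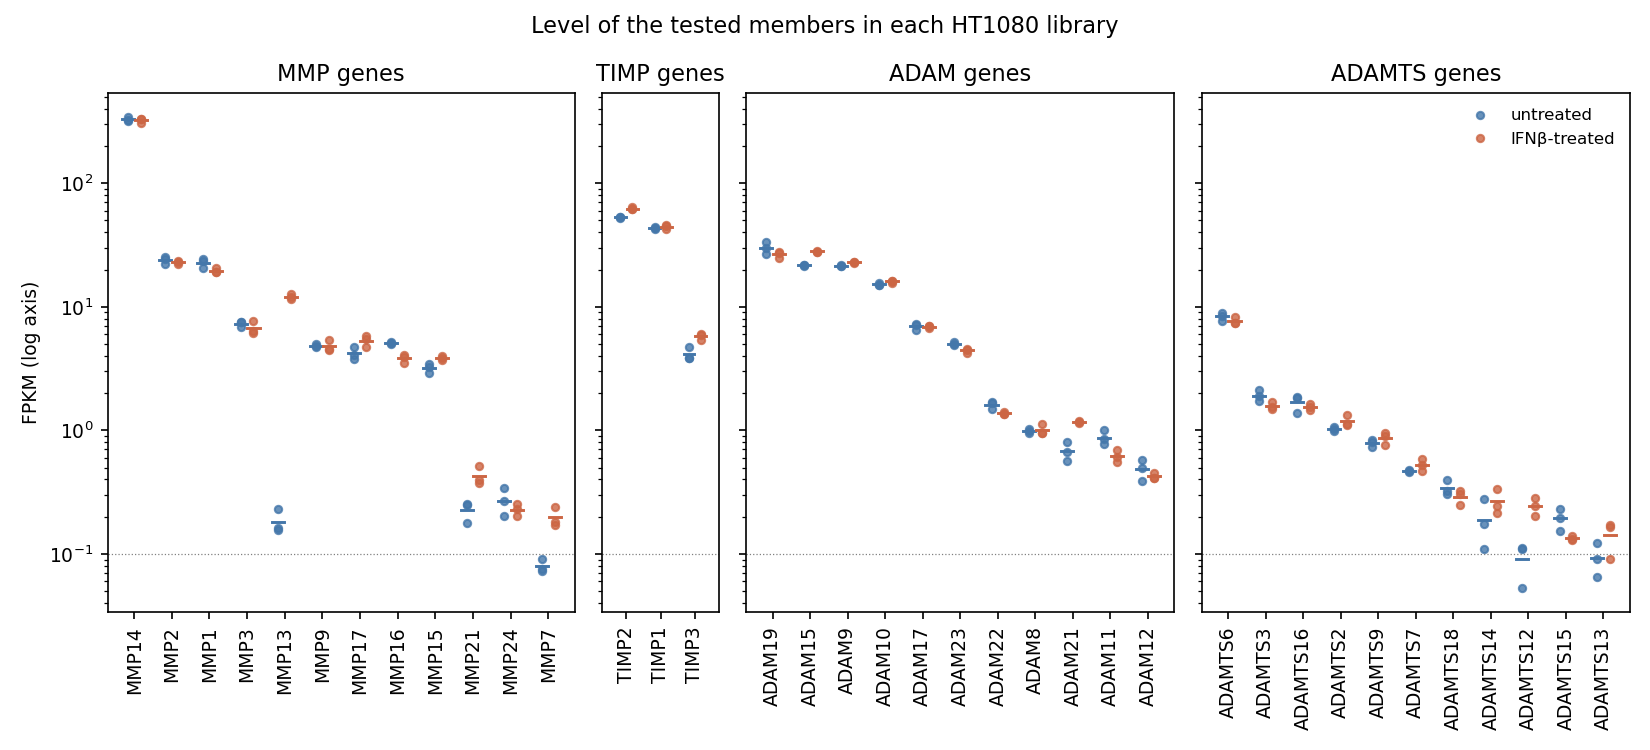
Level in FPKM on a log axis of the 37 tested members in each library, by family and in order of mean level, with a point per library and a short line at the mean of each group of 3. MMP14 lies above 300 FPKM in every library, MMP13 moves from between 0.155 and 0.232 to between 11.5 and 12.7 FPKM, and the dotted line marks the limit of 0.1 FPKM.

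The comparison of IFNβ-treated with untreated cells asked which of these genes differed in level. MMP13 rose 66.1-fold, and no other member that passed the test reached 2-fold on the log2(FPKM + 0.1) scale. The other 11 members that passed the test moved by less, with ADAM15, TIMP2, ADAM21, TIMP3, ADAM9, MMP15, MMP21, ADAMTS12 and MMP17 higher and MMP16 and ADAM23 lower. ADAMTS12 is included in the counts below, although it entered the test only through the treated group. With limma and a Benjamini-Hochberg adjusted p under 0.05, 12 of the 37 tested members were called (32.4%), against 32.7% of the 20716 genes tested. The count of calls was therefore near the background, and it says nothing particular about these families. Of the 37 tested members, 10 were called higher and 2 lower, where the background was 15.2% of all genes higher and 17.5% lower. This split was not tested, and it moved with the processing. It was 6 higher and 5 lower with quantile normalization, and 12 higher and 7 lower with limma-voom. The background of genes that were called and moved by at least 2-fold was 4.22%, and 1 of the 37 members did so. The groups did not overlap in 19 of the 37 members, with a background of 46.6%. Among members with a mean of at least 1 FPKM, 9 of 24 were called (37.5%), against a background of 49.4% for genes at that level. The median log2 fold change was 0.03 over the tested members and 0.0002 over all genes tested. With limma-voom on the recovered fragments, 19 members were called, against 38.3% of all genes, and the low genes MMP7 and ADAMTS12 then passed 2-fold as well. When any 1 library was left out, 7 or 8 of the members were called, and the count fell to 7 without untreated replicate 3 and without IFNβ replicate 3. This was between 18.9% and 21.6% of the tested members, where between 26.6% and 28.9% of all genes were called in the same fits. MMP13, ADAM15, TIMP2, TIMP3, ADAM21 and MMP16 were called in each of the 6 fits that left out a library.

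**Figure D2:**
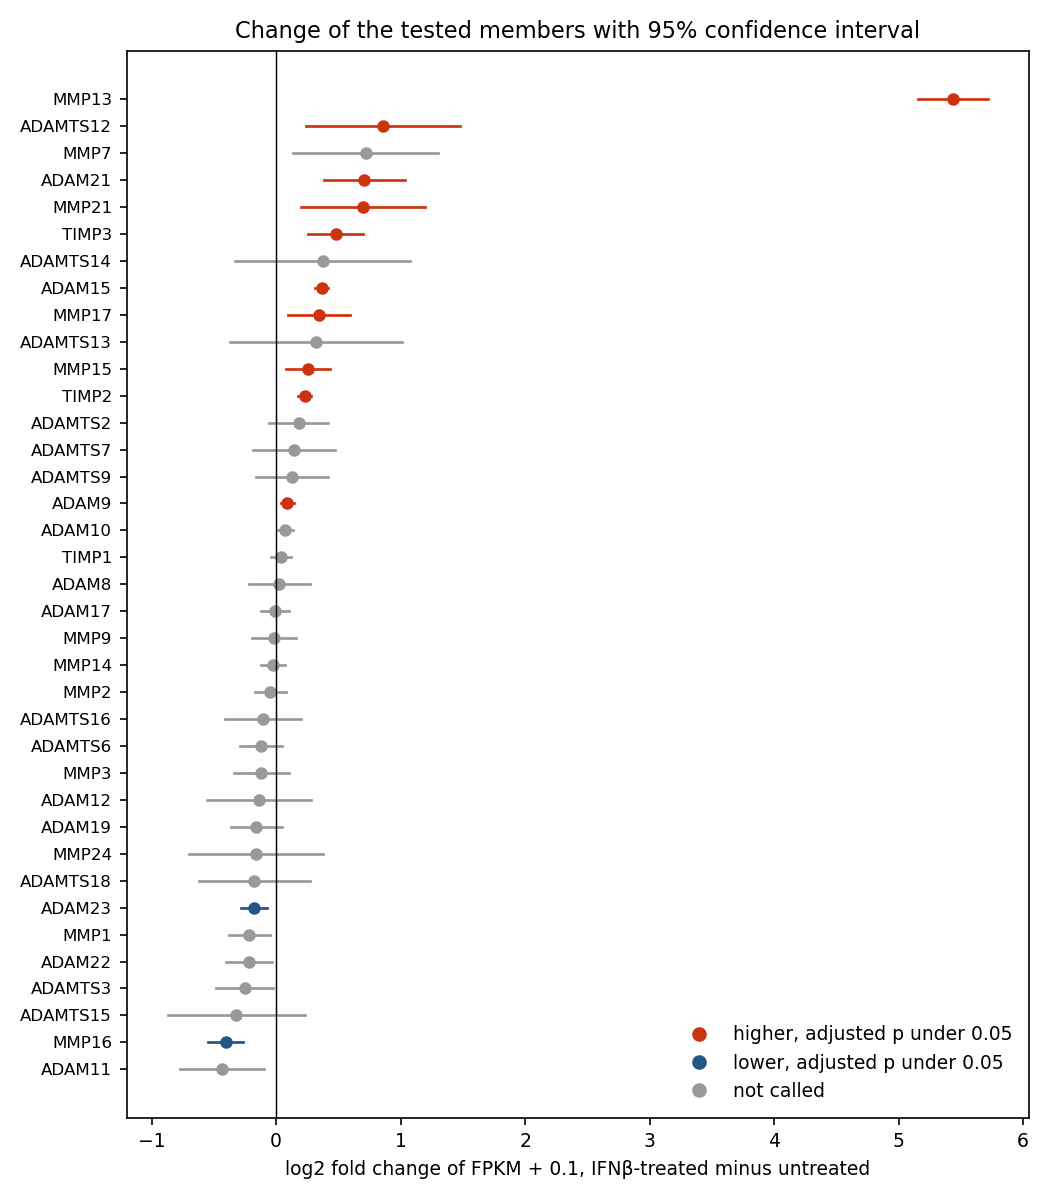
The log2 fold change of each of the 37 tested members (IFNβ-treated minus untreated, on log2 of FPKM + 0.1), with bars for the 95% confidence interval from limma and colour for the call. MMP13 stands at 5.44, and the other 36 members lie between -0.43 and 0.86.

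Of the interstitial collagenases, which cut fibrillar collagen, MMP13 (collagenase 3) was at 0.232, 0.155 and 0.161 FPKM in the untreated libraries and at 11.48, 12.01 and 12.67 FPKM in the IFNβ-treated libraries. These values rest on 15, 13 and 15 fragments and on 1001, 850 and 1037 fragments, and every treated library was far above every untreated library. The mean went from 0.183 ± 0.0428 to 12.1 ± 0.598 FPKM (S.D., n = 3 per group), a log2 fold change of 5.44 with a standard error (SE) of 0.12 (adjusted p = 6.2e-07). Because 0.1 is added before taking logs, this value understates the ratio of the means. MMP13 ranked 30 of 20716 genes by log2 fold change. The gene (ENSG00000137745) spans chr11:102942995-102955734 on the minus strand of GRCh38, and no exon of another gene overlaps its exons.

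MMP1 (collagenase 1) was the main collagenase transcript of untreated cells, at 24.2, 20.6 and 23.5 FPKM, and stood at 20.6, 19.1 and 19.0 FPKM after IFNβ. The highest treated library lay slightly above the lowest untreated library, so the groups overlapped. Its log2 fold change of -0.21 (SE 0.07) did not pass the test (adjusted p = 0.054), which made MMP1 the member just outside the threshold, and it passed without untreated replicate 2 (log2 fold change -0.29, adjusted p = 0.0092), among genes of at least 1 FPKM (adjusted p = 0.032) and with limma-voom (adjusted p = 0.0029). MMP1 shares 150 exonic bases with WTAPP1 on the opposite strand. MMP8, the neutrophil collagenase, had 2, 16 and 8 fragments in untreated and 9, 8 and 13 fragments in IFNβ-treated libraries and was under the limit for testing.

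Within a library, the ratio of MMP13 to MMP1 was 0.00957, 0.00752 and 0.00685 in untreated cells and 0.556, 0.63 and 0.667 after IFNβ. MMP13 thus went from between 0.679% and 0.947% of the summed collagenase FPKM to between 35.6% and 39.8%. The sum of the 3 collagenases was 24.5, 20.9 and 23.7 FPKM without and 32.2, 31.2 and 31.8 FPKM with IFNβ. These are descriptions of the values above and were not tested separately.

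The gelatinases, which cut denatured and basement membrane collagen, were not called. MMP2 (gelatinase A) was at 24.2, 25.2 and 22.1 FPKM in untreated and 22.3, 23.5 and 23.3 FPKM in IFNβ-treated libraries, with a log2 fold change of -0.05 (95% confidence interval -0.17 to 0.08, adjusted p = 0.54). MMP9 (gelatinase B) was at 4.97, 4.70 and 4.79 FPKM without and 5.34, 4.46 and 4.55 FPKM with IFNβ (95% confidence interval of the log2 fold change -0.19 to 0.16, adjusted p = 0.91). In both genes the libraries of the groups overlapped. MMP9 shares 430 exonic bases with the antisense gene SLC12A5-AS1, and strand was not stated for the counting.

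Stromelysins and matrilysins, which cut a broad range of matrix proteins, were mostly low. MMP3 (stromelysin 1) was at 7.30 ± 0.419 FPKM in untreated and 6.74 ± 0.844 FPKM in treated cells, and its groups overlapped. It was not called (log2 fold change -0.12, SE 0.09, adjusted p = 0.39). Among the fits that left out a library, it was called only without IFNβ replicate 1. MMP7 (matrilysin) rested on 4, 5 and 7 fragments against 13, 10 and 16 fragments, with a log2 fold change of 0.72 (SE 0.24, adjusted p = 0.065). Its untreated mean of 0.0799 FPKM was under the limit for testing, so MMP7 entered the test through the treated group. MMP10 and MMP11 had at most 2 fragments in any library.

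Membrane-type MMPs sit in the plasma membrane and act on matrix next to the cell. MMP14 (MT1-MMP), the member with the highest level, was at 323.3, 343.7 and 319 FPKM in untreated and 307.9, 329.3 and 330.7 FPKM in IFNβ-treated libraries. The groups overlapped, and the log2 fold change was -0.03 (95% confidence interval -0.12 to 0.07, adjusted p = 0.67). MMP16 (MT3-MMP) fell from 5.12, 5.02 and 5.19 FPKM to 3.91, 4.08 and 3.53 FPKM, with a log2 fold change of -0.41 (SE 0.06, adjusted p = 0.0027). Every treated library was below every untreated library.

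MMP15 (MT2-MMP) rose from 3.48, 2.92 and 3.27 FPKM to 3.85, 3.72 and 4.02 FPKM, with a log2 fold change of 0.26 (SE 0.07, adjusted p = 0.037). MMP17 (MT4-MMP, which is held by a lipid anchor) rose from 4.72, 4.08 and 3.78 FPKM to 4.76, 5.79 and 5.44 FPKM, with a log2 fold change of 0.34 (SE 0.10, adjusted p = 0.046). MMP17 was the member just inside the threshold, and its lowest treated library was close to its highest untreated library. Both calls depended on which libraries were kept. MMP15 passed only without untreated replicate 1 among the 6 fits with a library left out (adjusted p between 0.065 and 0.12 in the other 5), and MMP17 was lost without untreated replicates 2 or 3 and without IFNβ replicates 2 or 3 (adjusted p between 0.12 and 0.14). MMP24 stayed between 0.201 and 0.339 FPKM and was not called, and MMP25 was under the limit.

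Of the remaining MMPs only MMP21, known from left-right patterning of the embryo, was tested. It was at 0.254, 0.176 and 0.247 FPKM in untreated and 0.519, 0.396 and 0.372 FPKM in treated libraries, on between 18 and 55 fragments. The log2 fold change was 0.70 (SE 0.20, adjusted p = 0.043), and the call was lost whichever library was left out (adjusted p between 0.066 and 0.11). MMP20, the enamel protease, had 2, 0 and 0 fragments against 9, 2 and 11 fragments, and MMP12 (macrophage elastase), MMP19 and MMP23B had at most 9 fragments in any library.

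Of the inhibitors, TIMP2, which also helps MMP14 to activate MMP2, rose from 53.1, 53.8 and 52.7 FPKM to 61.6, 61.7 and 63.8 FPKM. The difference was small and well outside the spread, with a log2 fold change of 0.23 (SE 0.02, adjusted p = 3.7e-04). TIMP3, which binds to the matrix and also inhibits ADAM17, rose from 3.87, 4.73 and 3.88 FPKM to 5.39, 5.97 and 6.08 FPKM (log2 fold change 0.48, SE 0.09, adjusted p = 0.0084). In both genes all treated libraries lay above all untreated libraries. TIMP2 shares 198 exonic bases with CEP295NL on the same strand and 367 with an antisense gene, so its fragments may not all be its own.

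TIMP1 was at 42.7, 44.5 and 43.2 FPKM in untreated and 42.7, 45.2 and 46.0 FPKM in treated libraries, with overlapping groups (log2 fold change 0.04, 95% confidence interval -0.04 to 0.12, adjusted p = 0.45). TIMP4 was listed at 0 in 5 libraries and had 1 fragment in IFNβ replicate 1. The summed FPKM of the TIMPs was between 0.249 and 0.256 of that of the MMPs in untreated libraries and between 0.276 and 0.282 in treated libraries. The ratio of MMP14 to TIMP2 was 6.08, 6.39 and 6.05 without and 5.00, 5.34 and 5.18 with IFNβ. Neither ratio overlapped between the groups, and neither was tested.

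The ADAMs with a zinc site are proteases, and the best known are the sheddases ADAM10 and ADAM17. ADAM10, which cleaves Notch receptors, was at 15.1, 15.5 and 15.1 FPKM in untreated and 16.2, 15.6 and 16.3 FPKM in treated libraries. The groups did not overlap, but the log2 fold change of 0.08 (SE 0.03) did not pass (adjusted p = 0.069). It passed without IFNβ replicate 2 (adjusted p = 0.046), among genes of at least 1 FPKM (adjusted p = 0.049) and with limma-voom on the fragments (adjusted p = 0.012). ADAM17, the enzyme that releases tumor necrosis factor, was at 6.97 ± 0.373 and 6.92 ± 0.121 FPKM, with a 95% confidence interval of the log2 fold change from -0.12 to 0.10 (adjusted p = 0.90). ADAM17 shares 1323 exonic bases with IAH1 on the opposite strand.

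ADAM15, a disintegrin that binds integrins, rose from 21.9, 21.4 and 21.9 FPKM to 27.8, 28.5 and 27.8 FPKM. The libraries of each group were close together, and the log2 fold change of 0.37 (SE 0.02) had an adjusted p of 6.1e-05, the lowest after MMP13. ADAM15 shares 306 exonic bases with DCST1 on the same strand. ADAM21, best known from the testis, rose from 0.565, 0.809 and 0.673 FPKM to 1.18, 1.15 and 1.18 FPKM (log2 fold change 0.71, SE 0.14, adjusted p = 0.0084). ADAM9 moved from 21.5 ± 0.231 to 22.9 ± 0.373 FPKM, a log2 fold change of 0.09 (SE 0.02, adjusted p = 0.018). The ADAM9 call was lost without untreated replicates 1 or 3 and without IFNβ replicates 1 or 3 (adjusted p between 0.051 and 0.059). ADAM19, the ADAM with the highest level, was at 30.1 ± 3.36 and 26.8 ± 1.62 FPKM with overlapping groups (log2 fold change -0.16, SE 0.09, adjusted p = 0.22).

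The ADAMs without a zinc site act in adhesion or as binding proteins. ADAM23, a receptor of the secreted LGI proteins, fell from 5.19, 5.04 and 4.90 FPKM to 4.26, 4.50 and 4.58 FPKM (log2 fold change -0.18, SE 0.04, adjusted p = 0.022). This call was lost without untreated replicates 1 or 2 and without IFNβ replicates 1 or 2 (adjusted p between 0.055 and 0.067). Its relatives ADAM22 and ADAM11 had log2 fold changes of -0.22 (adjusted p = 0.076) and -0.43 (adjusted p = 0.058) with no overlap between the groups. Neither passed the main test or any fit that left out a library. Both were called with limma-voom, with quantile normalization and with eBayes without a trend. The 5 others of this kind were under the limit for testing.

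ADAMTS genes were lower in level, and 1 of the 11 tested was called (9.09%, where 32.7% of all genes were). A mean of at least 1 FPKM was reached by 4 of these 11, but by 11996 of the 20716 genes tested. Genes at that level were called more often (49.4%), so 32.7% is not a background of like level. ADAMTS12, which acts on cartilage matrix, had 24, 15 and 35 fragments in untreated and 60, 68 and 68 fragments in treated libraries, or 0.0909 ± 0.0332 and 0.244 ± 0.0403 FPKM. The log2 fold change was 0.86 (SE 0.26, adjusted p = 0.046). Its untreated mean was under the limit for testing, so it entered through the treated group, and the call was lost whichever library was left out (adjusted p between 0.054 and 0.1). ADAMTS6, the ADAMTS with the highest level, was at 8.38 ± 0.596 and 7.70 ± 0.553 FPKM (adjusted p = 0.26). The procollagen N-proteinases ADAMTS2, ADAMTS3 and ADAMTS14, which trim collagen precursors, had log2 fold changes between -0.25 and 0.37 and were not called. Of the 7 hyalectanases, which cut proteoglycans, 2 were tested and neither was called. ADAMTS20, one of those under the limit, had 2, 0 and 0 fragments against 7, 8 and 24 fragments.

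Genes that act together with these proteases were read from lists. Of 51 tested genes in 4 lists, 26 were called (51.0%), 18 higher and 8 lower, against the 32.7% of all genes tested. Of those with a mean of at least 1 FPKM, 22 of 39 were called (56.4%), against the 49.4% of all genes at that level. The lists were chosen with earlier results of these data known, so these shares cannot show that such genes are called more often. MEP1B, among the 26 called, entered the test only through the treated group. In the list of MMP activation and proteolysis at the cell surface, 17 of 19 genes were tested, 7 were higher and 3 lower, and the member past 2-fold was SERPINB2, an inhibitor of plasminogen activators. It rose from 1.17, 0.676 and 1.18 FPKM to 5.26, 4.60 and 4.53 FPKM (log2 fold change 2.18, SE 0.20, adjusted p = 4.1e-04). Of 10 tested regulators of ADAM10 and ADAM17, 1 was higher and 2 lower. The higher gene was RHBDF2, which codes for iRhom2, a partner of ADAM17 in its maturation. Its level rose from 5.30, 5.28 and 4.58 FPKM to 10.6, 11.5 and 10.9 FPKM, with a log2 fold change of 1.11 (SE 0.06, adjusted p = 6e-05), beside no called difference in ADAM17 itself. RHBDF1, on the same list, was at 8.73 FPKM in untreated and 9.71 FPKM in IFNβ-treated cells and was not called (adjusted p = 0.084).

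Of 15 tested substrates of the sheddases, 7 were higher and 3 lower. The lower genes were IL6R (log2 fold change -0.86, adjusted p = 8e-04), HBEGF (-0.20, adjusted p = 0.0011) and NOTCH2 (-0.20, adjusted p = 0.0014). Past 2-fold were TNFRSF1B and AREG, both higher. TNFRSF1B, a receptor of tumor necrosis factor, rose from 0.115 ± 0.0153 to 0.487 ± 0.149 FPKM (log2 fold change 1.42, SE 0.25, adjusted p = 0.0059). AREG, a ligand of the epidermal growth factor receptor, rose from 0.175 ± 0.0900 to 0.670 ± 0.0834 FPKM (log2 fold change 1.54, SE 0.29, adjusted p = 0.0074). Both genes were low, with between 3 and 15 fragments in any untreated library. Among 9 tested ADAMTS-like proteins and related metalloproteinases, 3 were higher and 0 lower. The meprin subunit MEP1B had 1, 2 and 2 fragments against 19, 19 and 10 fragments (adjusted p = 0.016), and it entered the test through the treated group.

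MMP13 lies at the end of the cluster of MMP genes on chromosome 11. Within 1 Mb, its nearest tested MMP neighbours MMP3 and MMP1 had log2 fold changes of -0.12 and -0.21 and were not called. Of the tested MMP genes in the cluster (MMP7, MMP1, MMP3 and MMP13), MMP13 was the one that was called. On the side away from the cluster, DCUN1D5 had a log2 fold change of -0.13 (adjusted p = 0.057) and DYNC2H1 fell by 0.43 on the log2 scale (adjusted p = 0.0014). Beyond MMP7, TMEM123 rose by 0.72 (adjusted p = 1e-06) and BIRC3, an inhibitor of apoptosis, by 1.00 (adjusted p = 0.0011). Also on that side, BIRC2 rose by 0.29 (adjusted p = 0.0048) and CEP126 by 0.49 (adjusted p = 0.017). YAP1 was lower there (log2 fold change -0.09, adjusted p = 0.012), and calls were common among all genes tested (32.7%). These neighbours were chosen by position after values had been seen.

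Promoter sequences (RefSeq, GRCh38.p14, 250 bases before to 50 after the start) were at hand for 39 of the 66 members, MMP13 not among them. The AP-1 motif TGAGTCA, on either strand, was present in 1 of these 39 (MMP7), with 4.92% of all promoters holding it. A member not named here may lack a sequence at hand rather than the motif. The core of the interferon-stimulated response element, GAAANNGAA, was found in ADAM30, MMP10 and MMP8, against 8.29% of all promoters, and the GAS motif TTCNNNGAA in 0 members, against 7.88%.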

How the data were processed

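Sequencing covered 3 libraries of untreated HT1080 cells and 3 of cells exposed to IFNβ (20 ng/mL, 24 h), grouped by the sample titles. The authors deposited FPKM for each Ensembl gene and library, with replicates not pooled. The submitters' processing notes name fastp, HISAT2, StringTie and GRCh38, and the study states DESeq2 for its own comparison. The annotation, gene lengths and strandedness are not given in the sources used here. There were 0 columns of other samples.

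Fragments were recovered from FPKM as whole numbers (tolerance 1e-05) with the exon length of GENCODE release 29 or, where that failed, the shortest length that gave whole numbers. This succeeded for 100.0% of 35303 genes, 16322 of them at the release 29 length, and the sums reached between 99.726% and 99.734% of the number each library was divided by. Taking the length nearest to release 29 in place of the shortest was also tried and was dropped, because the sums then came to between 100.7% and 100.8%, more than a library holds. It changed 504 genes, of which 1 was a member (ADAM33). At other lengths a low count is the smallest whole number that fits, and 4436 gene IDs are not in release 29. Counts of fragments cover counting error only.

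The main test was a linear model per gene in limma 3.58.1 (R 4.3.3) with trended eBayes, without covariates. It took log2(FPKM + 0.1) as input and covered the 20716 genes whose mean reached 0.1 FPKM, two-sided, with Benjamini-Hochberg adjustment over all genes tested. An exact permutation test of 3 against 3 libraries cannot go below p = 0.1. The procedure was tested on simulated data. Python 3.11.15 (pandas 2.3.3, numpy 2.4.6, matplotlib 3.10.9) did the rest. Replicates differed by more than counting noise (chi-square per degree of freedom between 1.785 and 3.388).

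The members and lists were chosen with earlier results of these data known. Genes were named by rule: members with an adjusted p under 0.05, the 10 with the highest level, MMP1, MMP2, MMP9, MMP13, MMP14, TIMP1 to TIMP4, ADAM10 and ADAM17, members next to the thresholds, list genes that were called and past 2-fold, and the interferon and marker lists. An interferon-stimulated gene of the list as first written is not reported here. MMP3, MMP7, MMP8, MMP20, MMP24, ADAM11, ADAM22, ADAMTS20, RHBDF1, IL6R, HBEGF and NOTCH2 are described beyond this rule. They were chosen after their values were seen.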

Additional observations from a re-analysis of the deposited data

How the results depend on the processing

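With limma-voom on the recovered fragments, 19 members were called (51.4%, against 38.3% of all genes; 7 lower, and 3 past 2-fold), the 12 of the report among them. At an adjusted p under 0.01, 6 members were called (16.2%, against 21.0% of all genes), 5 higher and 1 lower. Without a level filter 8 were called (13.3%, against 17.6%), 6 of them higher. Quantile normalization, which moved the median of all genes by -0.06, called 6 higher and 5 lower (29.7%, against 32.7%), and eBayes without a trend called 4 lower (32.4% in both directions, against 28.8%). With each library left out in turn, between 7 and 8 members were called (18.9% to 21.6%, against 26.6% to 28.9%), between 5 and 7 higher and between 1 and 2 lower. Same-numbered libraries deviated from their group means with correlations of 0.014, 0.023 and 0.031, and every sample correlated best with its own number. These correlations are small, and they cannot decide whether the numbers pair the samples. With the replicate block 8 members were called (21.6%, against 29.3%), 6 higher and 2 lower, with MMP1 gained and ADAM9, ADAM23, MMP17, MMP21 and ADAMTS12 lost. The calls that held under every alternative run were MMP13, ADAM15, TIMP2, TIMP3 and MMP16 and, wherever it was tested, ADAM21. Genes with a log2 fold change near 0 changed sign without ever passing: ADAM17 stood at 0.0026 with equal FPKM totals and MMP14 at 0.0332 with quantile normalization. With a library left out, ADAM17 ranged from -0.0543 to 0.0164, MMP14 from -0.0479 to 0.0067 and MMP9 from -0.0956 to 0.0322. The cause of these changes was not tested. Over the named genes and settings, 238 values kept direction and call, 46 lost the call, 7 gained it and 10 changed sign. The 29 members under 0.1 FPKM were not tested in the main comparison, and most of them rest on few fragments.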
